A study of Mus musculus with 8 samples.

Results

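The genes described here are 41 mouse genes of mitosis and cytokinesis, with known functions in the late cell cycle. They were followed in the left ventricle after ischemic injury, and were listed with earlier results of these data known. They were matched by symbol to the Ensembl identifiers of the deposited count table, and all 41 were found among its 38293 identifiers. All 41 also passed the filter on low counts, which left 13972 genes for testing. The tissue was left ventricle of C57BL/6J mice whose left anterior descending artery had been ligated and reperfused. Every heart then received 2 injections of 10 µl of UPy-PEG, a supramolecular hydrogel, into the heart muscle, and was taken 3 days later. In the antimiR-195 group (4 libraries) the gel carried antimiR-195, an oligonucleotide that blocks the microRNA miR-195. In the hydrogel group (4 libraries) the gel carried no drug. The sources used here do not state the age and sex of the mice, the antimiR dose or which part of the ventricle was injured, and uninjured hearts were not analysed here. Each library held between 16872968 and 22751753 gene counts. Replicates are named by number within a group, and a number pairs nothing across the groups.

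Entry into mitosis is driven by Cdk1 bound to cyclin B or cyclin A. Aurora and Polo kinases then build the spindle, and the checkpoint holds the cell until every kinetochore is attached. The anaphase-promoting complex then acts with Cdc20, its activator, and Ube2c, its ubiquitin-conjugating enzyme. Cytokinesis follows through the central spindle and the contractile ring. Adult mammalian cardiomyocytes seldom divide, whereas fibroblasts, endothelial cells and immune cells of an injured heart can. The miR-15 family, to which miR-195 belongs, is known as a brake on the cell cycle in the mouse heart, which gives the question that these genes address here. RNA was measured in left ventricle tissue, so a change in the number of dividing cells and one in RNA per cell cannot be told apart. Nor can the type of the dividing cell be read from these values.

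Late cell cycle genes share promoter elements, and those elements are shown here for 4 members: the mitotic cyclin Ccnb2, the kinase Cdk1, the ubiquitin-conjugating enzyme Ube2c, and the kinetochore protein Cenpf, whose values ran against those of the rest. The cell cycle genes homology region (CHR) was searched as TTTGAA or TTCGAA, and the CCAAT box, which is bound by the factor NF-Y, as CCAAT, both on either strand. The windows are from RefSeq (build GRCm38.p6) and run from 250 bases before to 50 bases after a RefSeq transcription start. For some members, such as Kif2c and Cdca8, this start lies well inside the gene as annotated in GENCODE M21. They are printed 5′ to 3′ on the strand of the gene, with CHR and CCAAT letters in capitals, so that TTCAAA and ATTGG are matches on the opposite strand. The Ccnb2 window lies at chr9:70421505-70421804 (minus strand), the Cdk1 window at chr10:69352863-69353162 (minus strand), the Ube2c window at chr2:164769679-164769978 (plus strand) and the Cenpf window at chr1:189688037-189688336 (minus strand). In the Ube2c window a pair of CCAAT matches on opposite strands overlap.
Ccnb2: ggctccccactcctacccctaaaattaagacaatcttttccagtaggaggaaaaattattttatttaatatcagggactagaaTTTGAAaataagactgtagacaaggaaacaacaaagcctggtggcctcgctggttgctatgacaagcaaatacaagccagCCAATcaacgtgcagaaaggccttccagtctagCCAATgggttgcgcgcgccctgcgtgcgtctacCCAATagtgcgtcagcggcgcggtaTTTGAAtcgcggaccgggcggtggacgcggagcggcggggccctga
Cdk1: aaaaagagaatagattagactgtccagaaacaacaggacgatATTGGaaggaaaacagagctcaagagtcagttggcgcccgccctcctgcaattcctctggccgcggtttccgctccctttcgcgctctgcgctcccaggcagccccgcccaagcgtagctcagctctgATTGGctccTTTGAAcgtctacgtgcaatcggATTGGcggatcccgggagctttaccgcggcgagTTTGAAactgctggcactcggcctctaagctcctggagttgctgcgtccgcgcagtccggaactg
Ube2c: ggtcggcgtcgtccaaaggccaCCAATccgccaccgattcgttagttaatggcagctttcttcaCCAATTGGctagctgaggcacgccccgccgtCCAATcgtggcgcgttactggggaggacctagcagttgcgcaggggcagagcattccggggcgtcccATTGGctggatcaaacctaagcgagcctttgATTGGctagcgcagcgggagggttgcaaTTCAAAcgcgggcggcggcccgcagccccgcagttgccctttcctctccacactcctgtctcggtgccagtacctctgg
Cenpf: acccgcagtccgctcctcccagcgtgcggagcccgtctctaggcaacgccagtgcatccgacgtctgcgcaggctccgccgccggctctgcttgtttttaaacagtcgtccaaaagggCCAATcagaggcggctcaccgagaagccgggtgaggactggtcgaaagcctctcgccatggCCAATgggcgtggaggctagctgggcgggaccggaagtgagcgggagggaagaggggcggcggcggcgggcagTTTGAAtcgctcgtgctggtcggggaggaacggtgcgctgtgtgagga

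A promoter window was given for 34 of the 41 members. Incenp, Foxm1, Aurkb, Ccna2, Kif20a, Pbk and Tpx2 had no entry. Ect2 and Prc1 had 2 windows each, and a gene was counted if any of its windows held the match. A CHR match was found in 27 of the 34 members (79.4%), against 1711 of the 10558 tested genes with a window (16.2%). A CCAAT match was found in 26 members (76.5%), against 42.6% of tested genes, and 18 members held at least 2 (52.9%, against 16.2%). Both motifs occurred together in 24 members (70.6%), against 6.68% of tested genes. Ccnb1 held a pair of CCAAT matches and no CHR match within its window. Cenpf held both motifs, as did the members with positive fold changes such as Cdk1, Ccnb2 and Ube2c. Matches are letters in a window and were not tested as binding sites, and 2 matches over all members overlapped another.

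**Figure D1:**
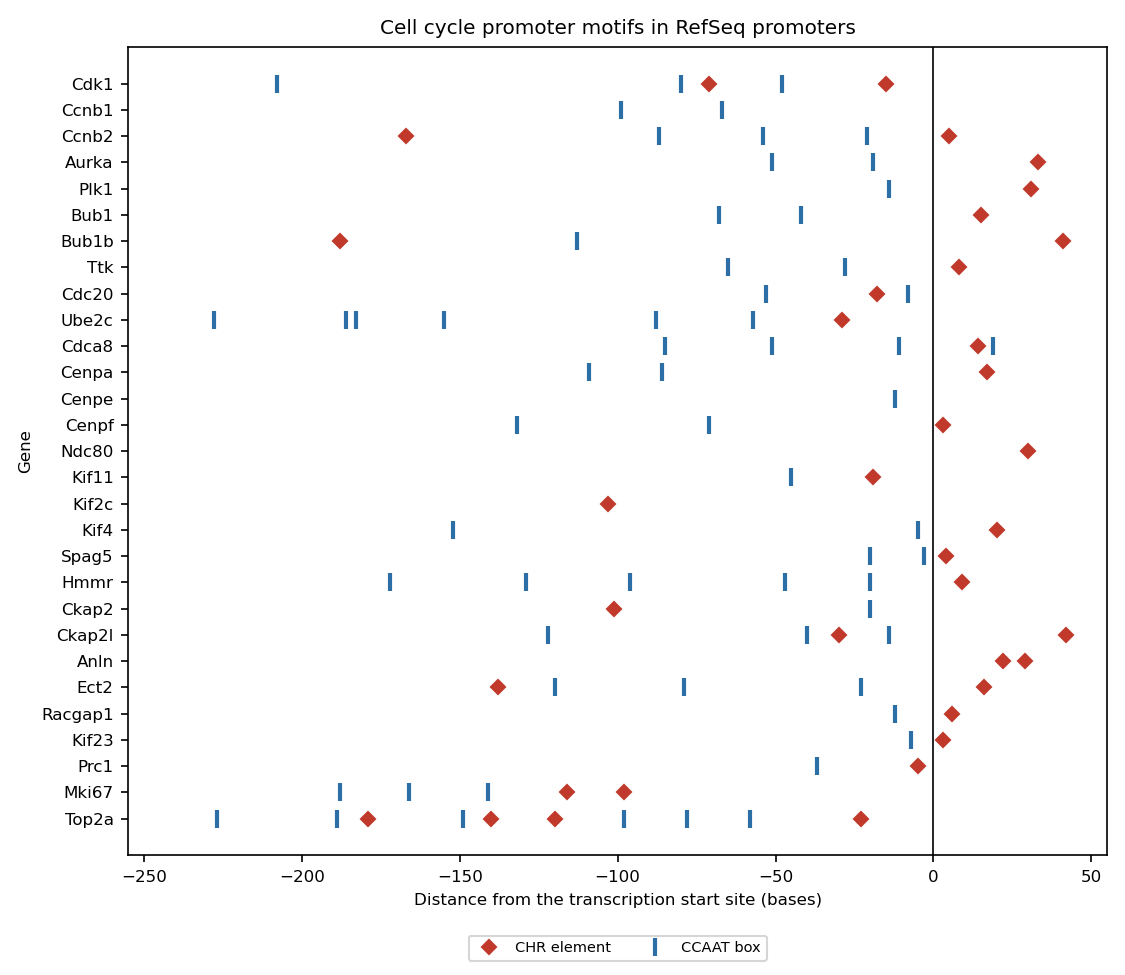
Position of CHR (red diamonds) and CCAAT (blue bars) matches along the promoter windows of the 29 members that held at least 1 match. The x axis is the distance in bases from the RefSeq transcription start, and each line of the y axis is a gene. CCAAT matches lie mainly upstream of the start, and many CHR matches lie at or just after it.

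The seed of miR-195 is shown next, since the drug is directed at this microRNA. Mature miR-195a-5p (RefSeq, GRCm38.p6, chr11:70235062-70235082, plus strand) is 1 of 10 mature mouse microRNA names in the table with the same bases 2 to 8. It is printed with 3 better known members of the family, seed in capitals.
miR-195a-5p: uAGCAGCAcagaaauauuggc
miR-497a-5p: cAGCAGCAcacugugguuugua
miR-15b-5p: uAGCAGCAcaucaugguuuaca
miR-16-5p: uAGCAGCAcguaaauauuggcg
A match to this seed was looked for in 1 GENCODE M21 transcript per gene, the one with the longest 3′ UTR. A UTR stretch counted if it paired with bases 2 to 8, or with bases 2 to 7 and was followed by an A. Such a match was found in 6 of 41 members (14.6%), against 3671 of 12874 tested genes (28.5%). The members' UTRs were shorter, with a median of 662 bases, against 1205 bases over all tested genes. The members with a match were Cdk1, Aurka, Birc5, Nusap1, Hmmr and Kif23. Of these, Kif23 had the longest site, of 8 bases, at bases 192 to 199 of a UTR of 384 bases. It pairs with bases 2 to 8 and is followed by an A, which is counted in its length. A site of 5 of these members is printed with its flanks, site in capitals.
Kif23: aacaaacaaaTGCTGCTAttgattagct
Cdk1: cgtatcgctgTGCTGCTtagtgtaatt
Aurka: ccaagaaccaTGCTGCTtttcctgatt
Birc5: aggtgggtccTGCTGCTcaagtccctc
Nusap1: agctgagaatTGCTGCTgtaagaatta
The 6 members with a match had log2 fold changes of 0.10 to 0.50 with a median of 0.27, and the 35 without one had a median of 0.28 (range -0.38 to 0.60). The difference between these medians was not tested.

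Nearly all mitosis and cytokinesis genes had a small positive estimate with antimiR-195, but no single gene passed the test. Levels are given as CPM, a gene's count scaled to the size of its library with TMM factors. The log2 fold change, antimiR-195 over hydrogel, was positive for 40 of 41 members, against 52.4% of all tested genes, and the exception was Cenpf. Its median over the members was 0.28, against 0.01 over all tested genes, and the values ran from -0.38 for Cenpf to 0.60 for Ccnb1. The members were chosen with earlier results of these data known, so these contrasts are descriptions only. By edgeR's quasi-likelihood test 0 of 41 members passed an adjusted p of 0.05, as did 0% of all tested genes, and the smallest adjusted p of a member was 0.9999. DESeq2 and limma also called 0. At an unadjusted p below 0.05, 2 members were higher (Ccnb1 and Ndc80), against 0.83% of tested genes, and 1 was lower (Cenpf), against 0.444%. These background shares are lower than this threshold gives on average by chance, so they overstate how far the members stand out. These p-values measure the spread between the libraries, since the labels do not state that each came from its own animal. Over the members the standard error had a median of 0.26. Their 95% confidence intervals reached a median of 0.56 to either side, against 0.38 over all tested genes. In 0 of 41 members did all antimiR-195 libraries lie above all hydrogel libraries, against 0.53% of tested genes, and in 0 of 41 did they all lie below, against 0.544%.

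The members varied together from library to library, so their signs are not independent of each other. The median of 0.28 was 0.12 without antimiR-195 replicate 2, with 35 of 41 members positive, and 0.16 without hydrogel replicate 3, again with 35 positive. It was 0.46 without hydrogel replicate 4, with 40 positive, and between 0.24 and 0.38 without any of the other 5 libraries. Limma-voom with quality weights, which gave antimiR-195 replicate 2 a weight of 0.162 and the others 0.824 to 2.49, put the median at 0.08 with 30 members positive.

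**Figure D2:**
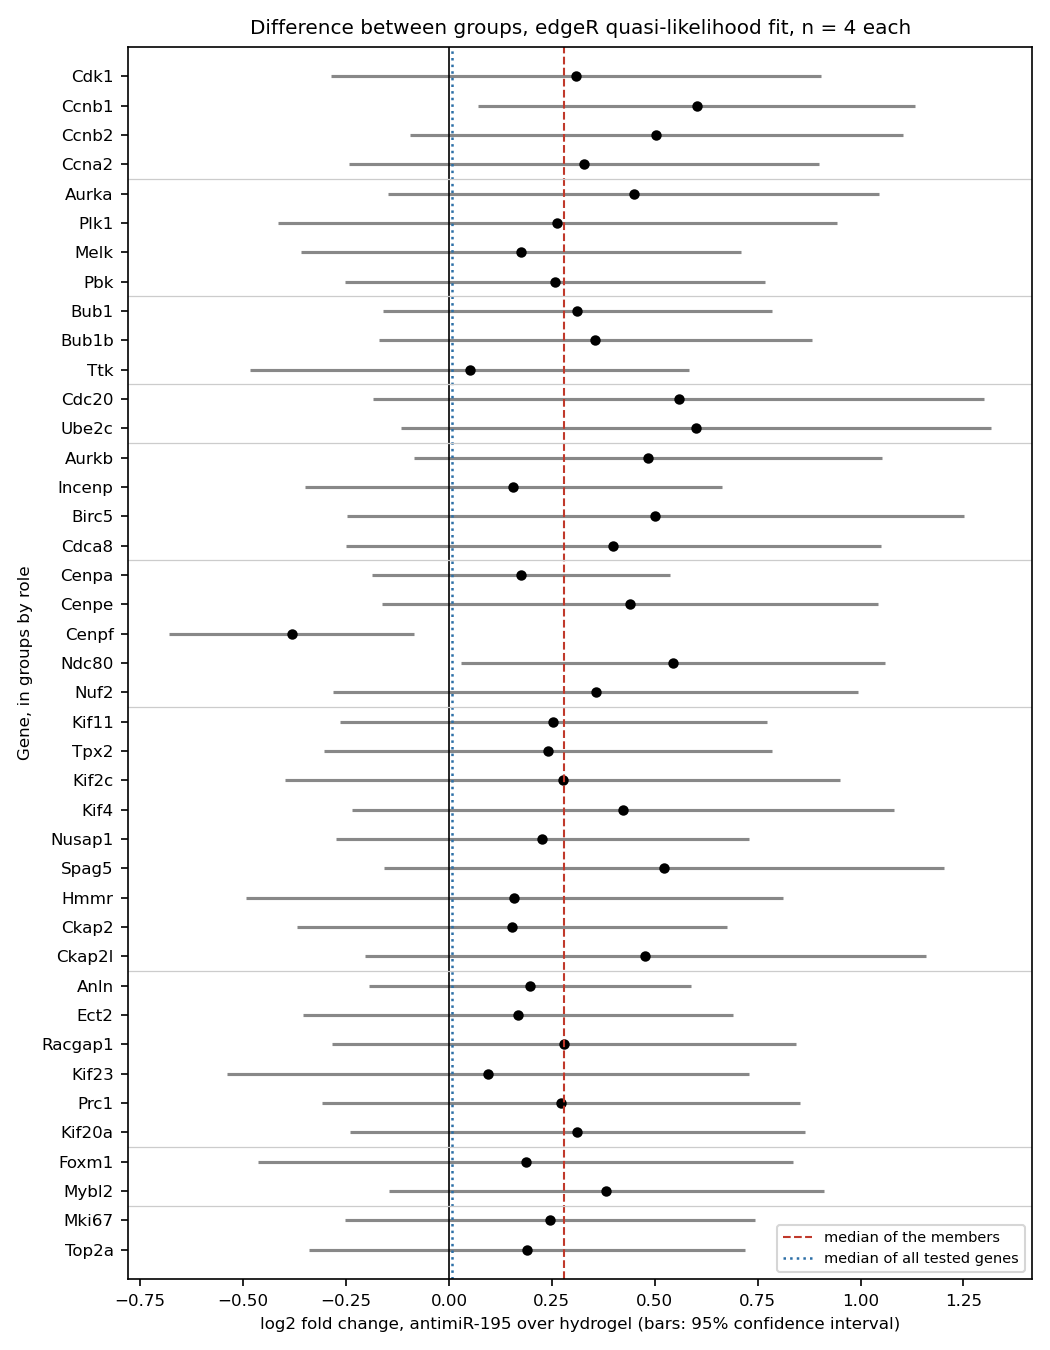
Log2 fold change of each of the 41 members, antimiR-195 over hydrogel (x axis; points, edgeR estimate; bars, 95% confidence interval), in groups by role (y axis, gene symbols), with the median of the members (red dashes) and of all tested genes (blue dots). The intervals of Ccnb1 and Ndc80 lie above 0 and that of Cenpf below 0, before any adjustment for the number of genes tested.

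The mitotic cyclins and Cdk1 had positive fold changes in 4 of 4, with a median of 0.42, and 0 of 4 passed. Ccnb1 (ENSMUSG00000041431, GRCm38 chr13:100778650-100786570, minus strand), the cyclin B that activates Cdk1 at the entry into mitosis, had 6.72, 8.92, 5.51 and 4.96 CPM in antimiR-195 replicates 1 to 4, against 4.07, 3.96, 3.23 and 5.99 CPM in hydrogel replicates 1 to 4. Only hydrogel replicate 4 reached into the antimiR-195 range, above antimiR-195 replicates 3 and 4. Its log2 fold change was 0.60 ± 0.24 (95% interval 0.07 to 1.13, unadjusted p = 0.03 and adjusted p = 0.9999 by edgeR's quasi-likelihood test). It was 0.42 (unadjusted p = 0.0798) without antimiR-195 replicate 2, and the unadjusted p also exceeded 0.05 without antimiR-195 replicate 1 or hydrogel replicate 1, 2 or 3 and with limma-voom. Ccnb2, the second B-type cyclin, had 13.4, 19.4, 10.2 and 8.09 CPM in antimiR-195 replicates 1 to 4, against 11, 7.43, 6.74 and 10.99 CPM in hydrogel replicates 1 to 4. Both groups overlapped, with hydrogel replicates 1 and 4 above antimiR-195 replicates 3 and 4. The fold change of Ccnb2 was 0.50 ± 0.27, and 0.23 without antimiR-195 replicate 2. Cdk1 (ENSMUSG00000019942, GRCm38 chr10:69335146-69352938, minus strand), the kinase itself, had 16.2, 22.9, 9.695 and 10.9 CPM in antimiR-195 replicates 1 to 4, against 13.6, 10.8, 8.86 and 14.99 CPM in hydrogel replicates 1 to 4. AntimiR-195 replicate 2 was the highest of the 8 libraries while antimiR-195 replicate 3 lay below hydrogel replicates 1, 2 and 4, and antimiR-195 replicate 4 below hydrogel replicates 1 and 4. The fold change of Cdk1 was 0.31 ± 0.27, and 0.03 without antimiR-195 replicate 2. Ccna2, the cyclin A of S phase and G2, ranged over 15.6 to 30.6 CPM with antimiR-195 and 10.8 to 23.8 CPM with hydrogel alone, a fold change of 0.33 ± 0.26. Pseudogenes named after Ccnb1 and Ccnb2 exist in the annotation. Reads that aligned to both a gene and its pseudogene were left out of the counts, and their number is not known.

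All 4 mitotic kinases had positive fold changes, with a median of 0.26, and 0 of 4 passed. Aurka, the Aurora kinase of centrosomes and spindle poles, had 6.61, 12.3, 5.51 and 5.52 CPM in antimiR-195 replicates 1 to 4, against 5.87, 5.13, 4.34 and 6.66 CPM in hydrogel replicates 1 to 4. AntimiR-195 replicate 2 stood apart from the other 7 libraries, which lay at 6.66 CPM or below and overlapped between the groups. Aurka had a fold change of 0.45 ± 0.27, which was 0.10 without that library. Pbk, a kinase active in mitosis, had 4.03, 6.07, 3.89 and 3.53 CPM in antimiR-195 replicates 1 to 4, against 4.02, 2.79, 3.23 and 4.66 CPM in hydrogel replicates 1 to 4. Its groups overlapped, and its fold change was 0.26 ± 0.23, or 0.06 without antimiR-195 replicate 2. Plk1, the Polo kinase of mitotic entry and spindle assembly, ranged over 5.45 to 11.5 CPM with antimiR-195 and 3.601 to 8.603 CPM with hydrogel alone, a fold change of 0.26 ± 0.31. Melk, a kinase whose transcript peaks in proliferating cells, was at 0.17 ± 0.24.

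The spindle checkpoint genes had a median fold change of 0.31, with 3 of 3 positive and 0 of 3 passing. Bub1b, which encodes the BubR1 protein that restrains Cdc20, had 9.52, 9.19, 7.42 and 5.52 CPM in antimiR-195 replicates 1 to 4, against 6.82, 5.77, 4.06 and 8.16 CPM in hydrogel replicates 1 to 4. Bub1, the checkpoint kinase that works at kinetochores, had 5.04, 4.65, 3.71 and 3.76 CPM in antimiR-195 replicates 1 to 4, against 3.97, 2.98, 2.54 and 4.38 CPM in hydrogel replicates 1 to 4. In both genes antimiR-195 replicates 1 and 2 were the highest libraries and hydrogel replicate 3 the lowest, and hydrogel replicate 4 lay above antimiR-195 replicates 3 and 4. Fold changes were 0.36 ± 0.24 for Bub1b and 0.31 ± 0.21 for Bub1, and without hydrogel replicate 3 they were 0.19 and 0.18. Ttk, the Mps1 kinase that starts checkpoint signalling, averaged 2.43 ± 0.362 CPM with antimiR-195 and 2.35 ± 0.631 CPM with hydrogel alone (SD, n = 4 each). Its fold change was 0.05 ± 0.24, and without hydrogel replicate 3 it was -0.12.

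Both partners of the anaphase-promoting complex had positive estimates, with a median of 0.58, and 0 of 2 passed. Ube2c, the ubiquitin-conjugating enzyme of the complex, had 21.3, 37.9, 13.1 and 12.6 CPM in antimiR-195 replicates 1 to 4, against 16.7, 12.6, 10.8 and 15.98 CPM in hydrogel replicates 1 to 4. Cdc20, its activator, had 12.9, 20.7, 7.48 and 7.803 CPM in antimiR-195 replicates 1 to 4, against 9.41, 7.14, 5.45 and 11.4 CPM in hydrogel replicates 1 to 4. In each gene antimiR-195 replicate 2 was above all others, antimiR-195 replicate 1 came next, and antimiR-195 replicates 3 and 4 lay within the hydrogel range. Ube2c was at 0.60 ± 0.32 (95% interval -0.12 to 1.32) and Cdc20 at 0.56 ± 0.34 (-0.18 to 1.30). Without antimiR-195 replicate 2 these were 0.16 and 0.18. Both genes share exon positions with a gene on the opposite strand, Tnnc2 for Ube2c and Elovl1 for Cdc20, and the sources used here do not state the strand setting of the counting.

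The chromosomal passenger complex, which corrects faulty attachments and later directs cytokinesis, had 4 of 4 positive fold changes with a median of 0.44, and 0 of 4 passed. Aurkb, its kinase, had 8.12, 9.901, 5.09 and 5.24 CPM in antimiR-195 replicates 1 to 4, against 5.87, 4.499, 3.65 and 6.33 CPM in hydrogel replicates 1 to 4. Hydrogel replicates 1 and 4 lay above antimiR-195 replicates 3 and 4. The fold change of Aurkb was 0.48 ± 0.26, and 0.28 without antimiR-195 replicate 2. Birc5, the survivin subunit that targets the complex to centromeres, had 15.2, 28.7, 9.52 and 8.09 CPM in antimiR-195 replicates 1 to 4, against 12.3, 10.5, 9.51 and 11.3 CPM in hydrogel replicates 1 to 4. The gap between antimiR-195 replicate 2 and replicate 4 was 3.55-fold, the widest within either group over all members. Birc5 was at 0.50 ± 0.34, at 0.01 without antimiR-195 replicate 2, and at -0.13 with limma-voom and quality weights. Cdca8, the borealin subunit, was at 0.40 ± 0.29 and Incenp, the scaffold, at 0.16 ± 0.23. Without antimiR-195 replicate 2 these 2 were at 0.04 and -0.01.

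Centromere and kinetochore genes held the member that ran the other way. Cenpf (ENSMUSG00000026605, GRCm38 chr1:189640606-189688086, minus strand), a large kinetochore-associated protein that peaks in G2 and mitosis, had 15.2, 13.2, 17.7 and 14.9 CPM in antimiR-195 replicates 1 to 4, against 21.2, 21.4, 20.3 and 16.4 CPM in hydrogel replicates 1 to 4. Hydrogel replicates 1 to 3 lay above all antimiR-195 libraries, and hydrogel replicate 4 lay below antimiR-195 replicate 3 only. Its log2 fold change was -0.38 ± 0.13 (95% interval -0.68 to -0.09), with an unadjusted p of 0.0164 and an adjusted p of 0.9999 by edgeR's quasi-likelihood test. The estimate stayed between -0.46 and -0.32 when any 1 library was left out, and was -0.37 with limma-voom and quality weights and -0.21 on log2 RPKM with a pseudocount of 1, and its unadjusted p stayed below 0.05 in each of these. Hydrogel replicate 3, the lowest library for 37 of the 41 members, was at 20.3 CPM in Cenpf, within the range of hydrogel replicates 1, 2 and 4. Ndc80, a core part of the kinetochore's hold on microtubules, had 5.099, 6.84, 3.53 and 4.16 CPM in antimiR-195 replicates 1 to 4, against 3.596, 3.47, 2.54 and 3.89 CPM in hydrogel replicates 1 to 4. Its antimiR-195 replicates 1, 2 and 4 lay above all hydrogel libraries, and replicate 3 lay among them. Ndc80 was at 0.54 ± 0.23 (unadjusted p = 0.0401, adjusted p = 0.9999, edgeR's quasi-likelihood test), and at 0.34 (unadjusted p = 0.121) without antimiR-195 replicate 2. Its unadjusted p also exceeded 0.05 without antimiR-195 replicate 1 or hydrogel replicate 1, 2 or 3 and with limma-voom. Nuf2, its partner in the same complex, ranged over 5.63 to 10.4 CPM with antimiR-195 and 3.69 to 9.32 CPM with hydrogel alone, a fold change of 0.36 ± 0.29. Cenpe, the kinetochore motor, had 9.47, 12.3, 7.96 and 7.75 CPM in antimiR-195 replicates 1 to 4, against 8.14, 6.504, 3.601 and 9.49 CPM in hydrogel replicates 1 to 4. Hydrogel replicates 1 and 4 lay within the antimiR-195 range, hydrogel replicate 2 lay below it, and hydrogel replicate 3 was the lowest. Cenpe was at 0.44 ± 0.27, and at 0.22 without hydrogel replicate 3. Cenpa, the histone H3 variant that marks centromeres, had the narrowest hydrogel spread of all members, with 39.5 to 46.3 CPM there and 39.2 to 66.0 CPM with antimiR-195. Its fold change was 0.18 ± 0.16, and -0.02 without antimiR-195 replicate 2.

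The 9 spindle motors and microtubule binders were all positive, with a median of 0.25, and 0 passed. Spag5, the astrin protein of spindle poles and kinetochores, had 4.71, 6.56, 5.03 and 3.47 CPM in antimiR-195 replicates 1 to 4, against 3.07, 3.23, 1.94 and 5.61 CPM in hydrogel replicates 1 to 4. Ckap2l, a spindle-binding protein, had 8.797, 10.7, 6.104 and 5.35 CPM in antimiR-195 replicates 1 to 4, against 7.56, 4.499, 3.05 and 7.22 CPM in hydrogel replicates 1 to 4. Kif4, a chromosome-bound kinesin, had 5.88, 8.53, 5.27 and 4.27 CPM in antimiR-195 replicates 1 to 4, against 5.5, 4.89, 2.22 and 5.33 CPM in hydrogel replicates 1 to 4. In all 3 genes antimiR-195 replicate 2 was the highest library and hydrogel replicate 3 the lowest, at 1.94 to 3.05 CPM, and the other 6 libraries were mixed between the groups. Fold changes were 0.52 ± 0.31 for Spag5, 0.48 ± 0.31 for Ckap2l and 0.42 ± 0.30 for Kif4, and without hydrogel replicate 3 they were 0.32, 0.27 and 0.19. The estimate of Spag5 was 0.85 without hydrogel replicate 4. Kif11, the motor that separates spindle poles, was at 0.25 ± 0.23, and Tpx2, the activator of Aurka on the spindle, at 0.24 ± 0.25. Kif2c, which depolymerizes microtubules at centromeres, was at 0.28 ± 0.30, and Nusap1, a microtubule bundler, at 0.23 ± 0.23. Hmmr, a spindle protein also known as a hyaluronan receptor, was at 0.16 ± 0.30 and Ckap2 at 0.15 ± 0.24. The hydrogel libraries of Hmmr alone covered 2.91 to 7.27 CPM.

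Cytokinesis genes had 6 of 6 positive estimates, a median of 0.23 and 0 passing. Kif20a, a kinesin of the central spindle, had 13.8, 15.9, 10.4 and 8.88 CPM in antimiR-195 replicates 1 to 4, against 11.2, 9.83, 5.86 and 12.7 CPM in hydrogel replicates 1 to 4. Anln, the anillin scaffold of the contractile ring, had 11.8, 8.92, 10.3 and 9.85 CPM in antimiR-195 replicates 1 to 4, against 10.4, 8.56, 6.37 and 10.4 CPM in hydrogel replicates 1 to 4. In Kif20a the usual order held, with antimiR-195 replicate 2 highest and hydrogel replicate 3 lowest, whereas in Anln antimiR-195 replicate 2 was the lowest of its group. Kif20a was at 0.31 ± 0.25 and Anln at 0.20 ± 0.18, and without hydrogel replicate 3 they were at 0.12 and 0.06. Prc1, which bundles the microtubules of the central spindle, was at 0.27 ± 0.26, and Racgap1 and Kif23, the subunits of the centralspindlin complex, at 0.28 ± 0.26 and 0.10 ± 0.29. Ect2, the exchange factor that activates RhoA at the division plane, was at 0.17 ± 0.24. Kif23 was at -0.13 without antimiR-195 replicate 2 and at -0.20 with limma-voom and quality weights.

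The transcription factors of the late cell cycle had positive fold changes smaller than the range within their groups, and 0 of 2 passed. Foxm1, which drives G2 and M phase genes, averaged 6.48 ± 0.796 CPM with antimiR-195 and 5.73 ± 2.81 CPM with hydrogel alone (SD, n = 4 each). The hydrogel group alone covered 3.14 to 9.66 CPM, the lowest and the highest of the 8 libraries. Its fold change was 0.19 ± 0.29, -0.02 without hydrogel replicate 3 and 0.56 without hydrogel replicate 4. Mybl2, the B-Myb factor that acts with the MuvB complex on these promoters, had 2.13, 1.91, 1.496 and 2.11 CPM in antimiR-195 replicates 1 to 4, against 1.53, 1.56, 1.02 and 1.78 CPM in hydrogel replicates 1 to 4. AntimiR-195 replicates 1, 2 and 4 lay above all hydrogel libraries and replicate 3 lay below 3 of them. Mybl2 was at 0.38 ± 0.24, from only 22 to 38 reads per library.

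The proliferation markers Mki67 and Top2a, which coat and untangle mitotic chromosomes, had positive estimates with intervals that held 0. Mki67 (GRCm38 chr7:135689784-135716361, minus strand) had 24.99, 32.9, 25.02 and 23.1 CPM in antimiR-195 replicates 1 to 4, against 27.1, 19.9, 13.3 and 29.2 CPM in hydrogel replicates 1 to 4. Top2a had 28.5, 35.1, 24.2 and 21.8 CPM in antimiR-195 replicates 1 to 4, against 25.1, 21.03, 15.1 and 35.02 CPM in hydrogel replicates 1 to 4. For both, hydrogel replicate 4 lay above antimiR-195 replicates 1, 3 and 4, and hydrogel replicate 3 was the lowest library. Mki67 was at 0.25 ± 0.23 and Top2a at 0.19 ± 0.24, with 95% intervals of -0.25 to 0.74 and -0.34 to 0.72. Without hydrogel replicate 3 they were at 0.06 and 0.02, and without hydrogel replicate 4 at 0.40 and 0.43.

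The spread between libraries of one group was wider than the difference between the groups for nearly all members. Summed over the 41 members, antimiR-195 replicates 1 to 4 had 471, 622, 379 and 348 CPM, and hydrogel replicates 1 to 4 had 414, 350, 272 and 470 CPM. The means were 455 ± 123 CPM with antimiR-195 and 376 ± 85.3 CPM with hydrogel alone (SD, n = 4 each), a ratio of 1.21. Within a group the highest library exceeded the lowest by 1.79-fold with antimiR-195 and by 1.73-fold with hydrogel alone. Member by member, the median of that fold was 1.79 within antimiR-195 and 2.07 within hydrogel. For 40 of 41 members the log2 range within the hydrogel group exceeded the size of the fold change, and within the antimiR-195 group it did so for 41 of 41. A range of 4 values tends to exceed a difference of group means, and the same counts over all tested genes were not made. These counts therefore do not set the members apart from other genes.

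The members followed a common order of libraries. AntimiR-195 replicate 2 was the highest of the 8 libraries for 32 of 41 members, whereas 30.8% of all tested genes were highest there. Hydrogel replicate 3 was the lowest for 37 of 41 members, whereas 13.04% of all tested genes were lowest there. AntimiR-195 replicate 1 was the highest for 5 members (Bub1, Bub1b, Ckap2, Anln and Mybl2). Hydrogel replicate 4 was above hydrogel replicate 3 in 39 of 41 members. In 37 of 41, antimiR-195 replicates 3 and 4 both lay below hydrogel replicate 4. Hydrogel replicate 3 was also the deepest library, with 22751753 gene counts, and the shallowest was antimiR-195 replicate 3, with 16872968.

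**Figure D3:**
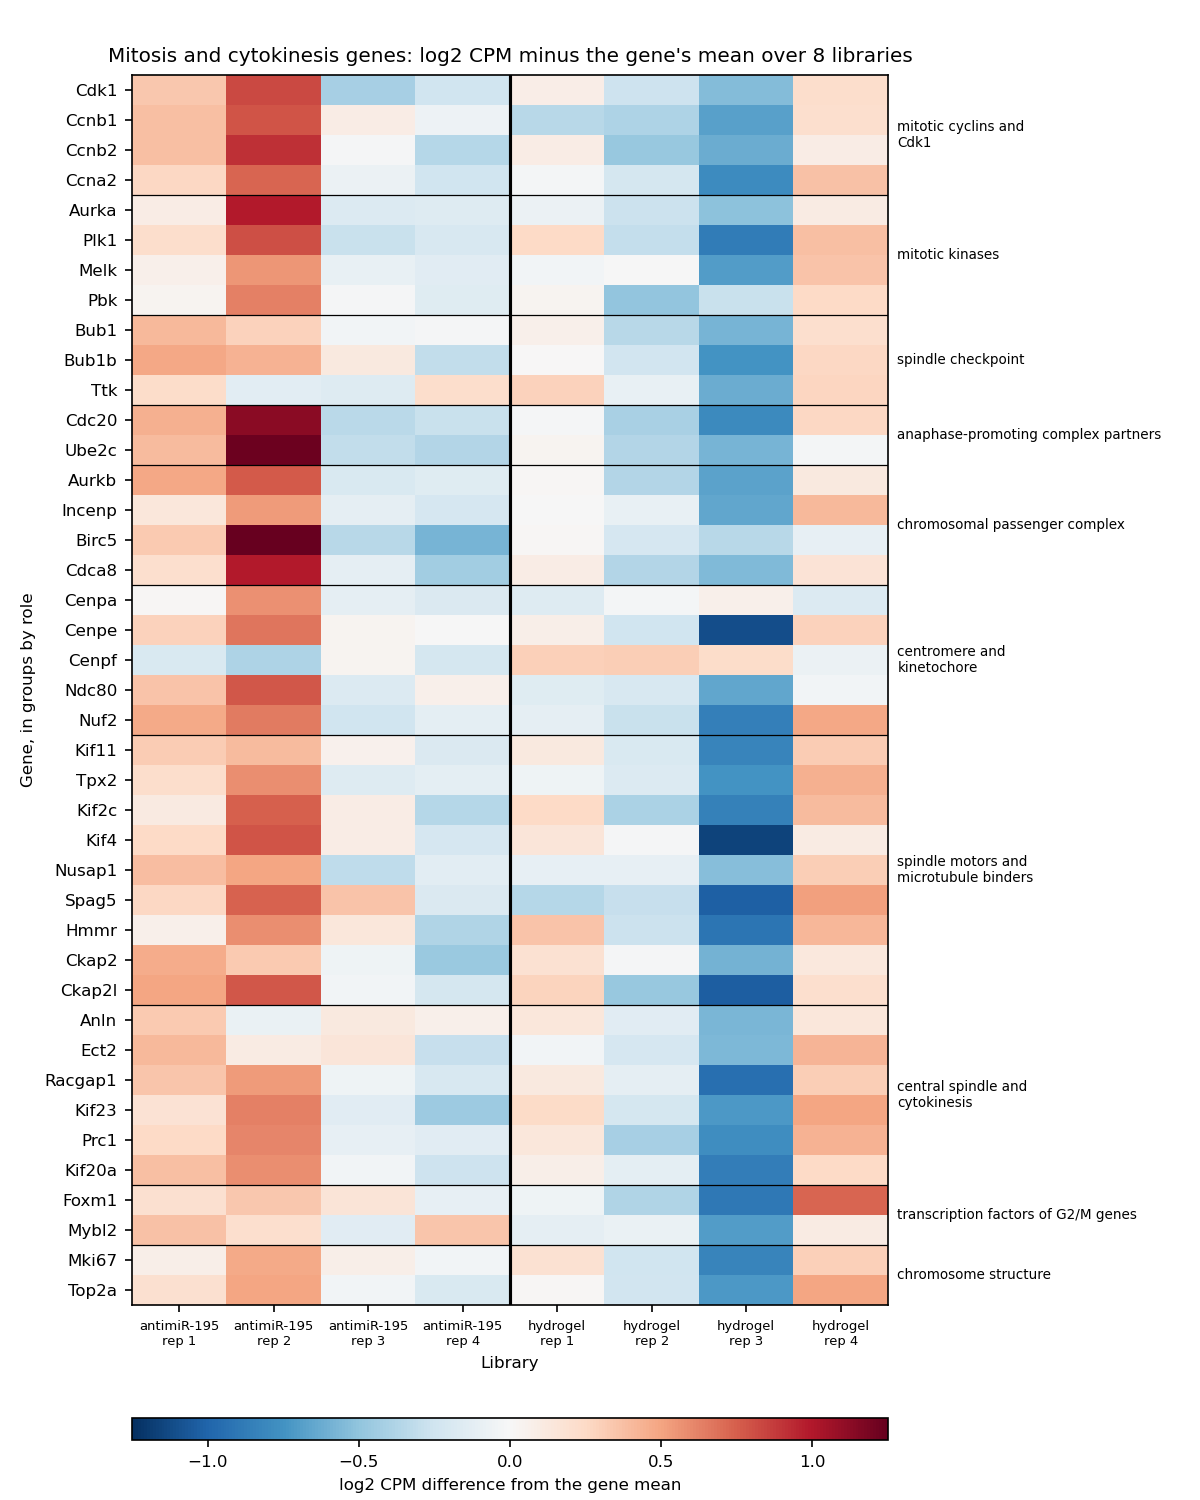
Log2 CPM of each member (y axis, grouped by role) in each of the 8 libraries (x axis, antimiR-195 left and hydrogel right) minus the gene's mean over the libraries, as colour (red above the mean, blue below). The column of antimiR-195 replicate 2 is red and that of hydrogel replicate 3 blue for most genes, and Cenpf shows the opposite pattern between the groups.

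Marker lists of other cell types were set beside these library orders, and they differed among themselves. The summed level of 10 fibroblast markers was 7455, 9245, 7420 and 7295 CPM in antimiR-195 replicates 1 to 4, against 7160, 6724, 5813 and 9237 CPM in hydrogel replicates 1 to 4. As with the members, antimiR-195 replicate 2 had the highest sum and hydrogel replicate 3 the lowest, but 4 of the 10 markers had a positive fold change. Hydrogel replicate 3 was the lowest library for the matrix genes Col1a1, Col1a2, Col3a1 and Postn. Other markers of the list ran the other way: Dcn and Gsn were highest in hydrogel replicate 3, and Pdgfra, Dcn and Lum were lowest in antimiR-195 replicate 2. The 12 macrophage and monocyte markers summed to 766, 1190, 711 and 817 CPM with antimiR-195, against 816, 856, 808 and 1026 CPM with hydrogel alone, and 5 of 12 were positive. In antimiR-195 replicate 2, Cd68, C1qa, C1qb, C1qc, Cd14, Ly6c2 and Fcgr1 were the highest of their group, and Mrc1 and Itgam the lowest. Neutrophil markers summed to 28.3 to 79.2 CPM with antimiR-195, highest in replicate 2, and to 31.4 to 37.4 CPM with hydrogel alone, with 5 of 6 tested markers positive and Ly6g at 0 in every library. Most of the sum in antimiR-195 replicate 2 was S100a8 (20.5 CPM) and S100a9 (31.9 CPM). Csf3r, Retnlg and Mmp9 were also the highest of their group there, and Cxcr2, at 1.48 CPM, was the lowest. Retnlg had a negative fold change, at -0.40. Erythroid markers summed to 1053, 1925, 510 and 558 CPM in antimiR-195 replicates 1 to 4, against 404, 1534, 1397 and 415 CPM in hydrogel replicates 1 to 4. Hydrogel replicates 2 and 3, the lowest hydrogel libraries in the members' sum, were the highest of that group in erythroid markers. Within the antimiR-195 group, by contrast, replicates 2 and 1 were the highest in both sums. The part of these cell types in the members' values was not tested. Endothelial markers covered 824 to 948 CPM with antimiR-195 and 794 to 976 CPM with hydrogel alone. Pericyte and smooth muscle markers covered 1025 to 1265 CPM with antimiR-195 and 979 to 1108 CPM with hydrogel alone. These sums hide opposite orders of single markers in antimiR-195 replicate 2. Emcn, Egfl7, Esam, Pdgfrb, Cspg4, Tagln and Acta2 were highest of the 8 libraries there, Acta2 at 510 CPM. Pecam1, Cdh5, Tie1, Tek, Rgs5, Abcc9 and Myh11 were lowest of the 8 there, Rgs5 at 194 CPM. Markers of T and NK cells summed to 3.47 to 5.47 CPM with antimiR-195 and 2.64 to 4.77 CPM with hydrogel alone, with Klrb1c and Gzmb at 0 in some libraries. B cell markers covered 11.3 to 20.6 CPM with antimiR-195 and 11.3 to 18.1 CPM with hydrogel alone, with Cd79a at 0 in some libraries. Cardiomyocyte markers such as Myh6 and Ttn summed to 67727 to 78642 CPM with antimiR-195 and 64945 to 75771 CPM with hydrogel alone, and each of the 10 was detected in every library. Hydrogel replicate 3 had the highest hydrogel sum for this list, at 75771 CPM, and antimiR-195 replicate 2 the highest of all, at 78642 CPM. Single markers differed. Tnnt2, Actc1, Myl2 and Tnni3 were highest of the 8 libraries in antimiR-195 replicate 2, and Myh6, Ryr2, Pln, Actn2 and Ttn were lowest there. In hydrogel replicate 3, Actc1, Myl2, Tnni3 and Pln were the highest of their group, and Ryr2 and Ttn the lowest.

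**Figure D4:**
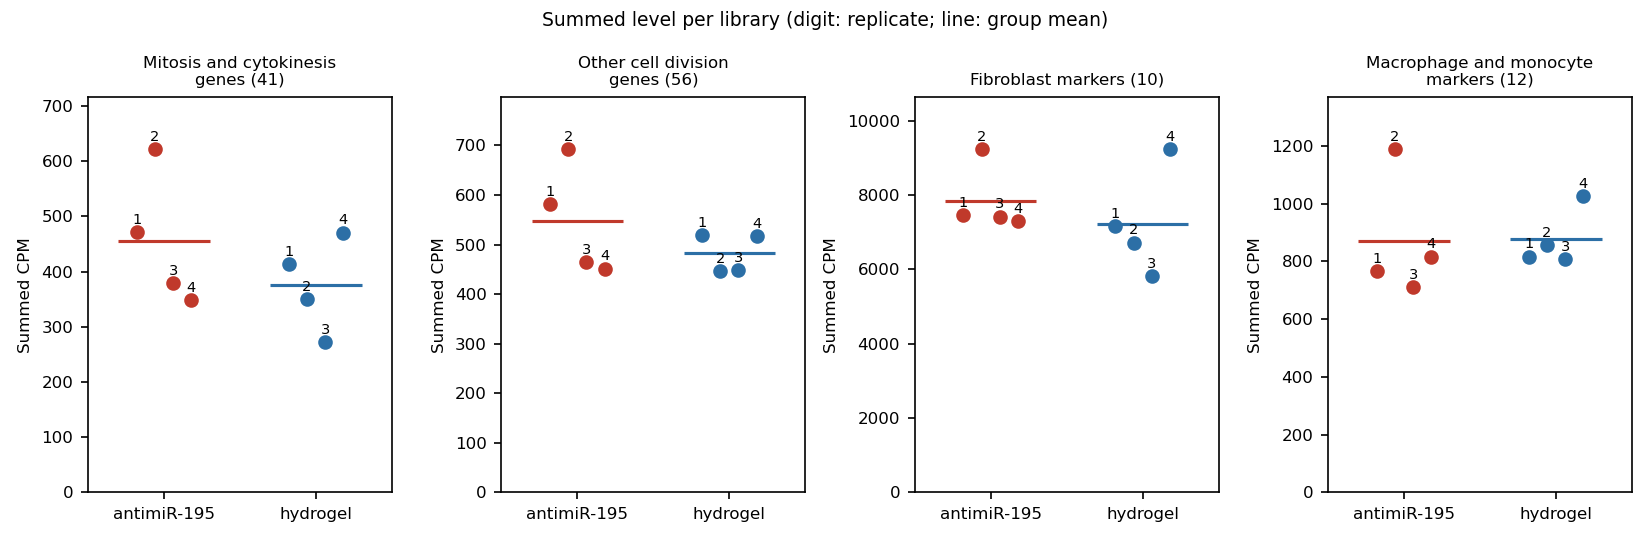
Summed CPM (y axis) of the 41 members, 56 other cell division genes, 10 fibroblast markers and 12 macrophage and monocyte markers in each library (points, with the replicate number) by group (x axis; lines, group means of 4). Replicate 2 is the highest antimiR-195 library in all 4 panels, at 622 CPM for the members, and the groups overlap in each.

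The excess of antimiR-195 replicate 2 over its group was larger in shorter members. Its log2 CPM minus the mean of the other 3 antimiR-195 libraries had a median of 0.61 over the members and was above 0 in 38 of 41. Birc5 at 1.45, Ube2c at 1.32 and Cdc20 at 1.19 had the largest excess. The exceptions were Ttk at -0.23, Anln at -0.25 and Cenpf at -0.27. The 10 shortest members, of 1541 to 2601 bases, had a median excess of 0.80, and the 10 longest, of 5431 to 11353 bases, one of 0.53. Across the 41 genes the excess had a Pearson r of -0.44 with log2 length, and the fold change between groups one of -0.38, as descriptions of genes measured in the same libraries. Without that library the median fold change was 0.13 for both the 10 shortest and the 10 longest members. This library also had the highest share of alignments to more than 1 place, at 47.8%, against 42.1% to 44.5% in the other 7. The part of these differences in the members' values was not tested. With a smooth trend on gene length removed from every library, 40 of 41 members were positive with a median of 0.33.

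**Figure D5:**
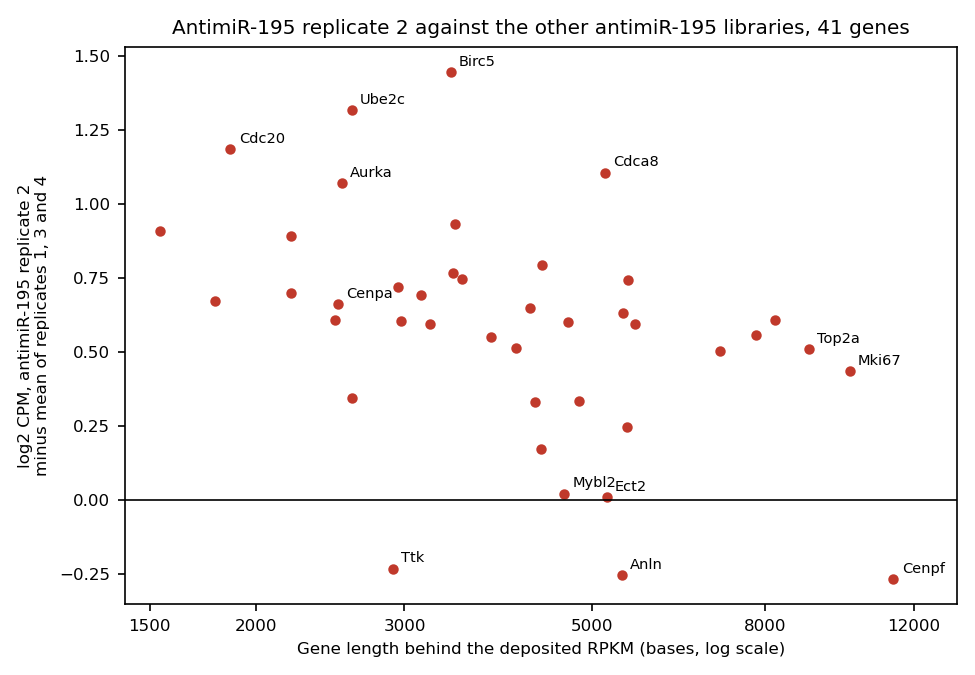
Log2 CPM of antimiR-195 replicate 2 minus the mean of antimiR-195 replicates 1, 3 and 4 (y axis) against gene length in bases (x axis, log scale), 1 point per member. Of the 41 points 38 lie above 0, with Birc5 the highest and Cenpf, the longest gene, the lowest.

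Levels between genes were compared per length, as deposited RPKM (counts scaled by gene length and library size) averaged over all 8 libraries. Cenpa was the highest, at 19.3 ± 5.42 RPKM with antimiR-195 and 16.7 ± 0.761 RPKM with hydrogel alone (SD, n = 4 each). Ccnb2 came next, at 8.42 ± 3.44 RPKM with antimiR-195 and 5.84 ± 1.64 RPKM with hydrogel alone. Ube2c followed at 8.303 ± 4.801 RPKM with antimiR-195 and 5.36 ± 1.21 RPKM with hydrogel alone. Then came Cdc20 and Ccna2, with means over all libraries of 5.56 and 5.54 RPKM. The means of Ccnb2, Ube2c, Cdc20 and Ccna2 differed from each other by less than the SD of any of them within the antimiR-195 group. The low end was Spag5 at 0.752, Ect2 at 0.727 and Mybl2 at 0.367 RPKM. Counts per library were 22 to 38 for Mybl2 and 688 to 1206 for Cenpa.

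Cell division genes outside the list mostly had the same direction. Of 56 further genes of kinetochore, condensin, spindle and cytokinesis, all of them tested, 54 had a positive estimate, against 52.4% of all tested genes. The median was 0.31, and 0 passed. Their groups did not separate either, with 0 of 56 having all antimiR-195 libraries above or below all hydrogel libraries. Over all tested genes these shares were 0.53% above and 0.544% below. At an unadjusted p below 0.05, 3 were higher and 0 lower, against 0.83% and 0.444% of all tested genes, the low shares described above. Ncapg, a condensin subunit, had 7.17, 7.77, 4.13 and 3.82 CPM in antimiR-195 replicates 1 to 4, against 4.34, 3.37, 2.54 and 4.22 CPM in hydrogel replicates 1 to 4. Dlgap5, a spindle protein, had 6.05, 5.63, 4.97 and 4.44 CPM in antimiR-195 replicates 1 to 4, against 4.28, 2.54, 2.26 and 4.77 CPM in hydrogel replicates 1 to 4. Both had hydrogel replicate 3 as the lowest library and at least 1 hydrogel library within the antimiR-195 range. Fold changes were 0.67 ± 0.27 for Ncapg, 0.61 ± 0.25 for Dlgap5 and 0.48 ± 0.22 for Cep55, which acts in abscission, each with an adjusted p of 0.9999 by edgeR's quasi-likelihood test. The 2 with a negative estimate were Dsn1, a kinetochore protein, at -0.16 ± 0.23 and Pttg1, the securin that holds separase in check, at -0.01 ± 0.23. Without antimiR-195 replicate 2 the count of positive genes was 49 of 56, without hydrogel replicate 3 it was 48, and with limma-voom and quality weights 42. AntimiR-195 replicate 2 was the highest library for 38 of the 56, against 30.8% of all tested genes. Hydrogel replicate 3 was the lowest for 41, against 13.04%. A CHR match was present in 30 of the 48 of these genes with a promoter window (62.5%), and both motifs in 43.8%. Over the tested genes with a window these shares were 16.2% and 6.68%.

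Some members carry a further limit on their counts. The exons of 12 members overlap those of another annotated gene, on the opposite strand for Ccna2, Plk1, Cdc20, Ube2c, Cdca8, Kif4, Nusap1, Ckap2l, Prc1 and Kif20a and on the same strand for Foxm1 and Top2a. Ccnb1, Ccnb2 and Kif4 have a named pseudogene. The values of these genes are uncertain to the extent that the counting split or dropped shared reads.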

How the data were processed

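Left ventricle polyadenylated RNA was measured in 8 libraries, grouped by the drug in the labels. TRIzol extraction preceded a stranded TruSeq mRNA library kit, per the labels' protocols. STAR, HTSeq and DESeq are the tools in the submitters' processing notes, and GRCm38 is the build. The sources used here state neither the annotation release nor the strand setting. The deposited counts are whole-number gene counts, and the deposited RPKM values, made by the authors from those counts, gave gene lengths and levels between genes. Alignments to more than 1 place made up 42.1% to 47.8% of HTSeq's lines and were left out, as were all lines that name no gene.

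Genes were named from GENCODE M21 (36345 of 38293 identifiers). After edgeR's filter on low counts 13972 genes were scaled by TMM (factors 0.953 to 1.04) and tested by edgeR's quasi-likelihood test (edgeR 4.0.16, R 4.3.3) of antimiR-195 against hydrogel, two-sided, without covariates, with Benjamini-Hochberg adjustment over all tested genes and a threshold of 0.05. The common biological coefficient of variation was 19.1%. Fold changes are given ± their standard error. The scripts were tested on simulated data. Alternatives were RLE and upper-quartile factors, no filter, DESeq2 1.42.0, limma 3.58.1 (voom with quality weights, or trend on log2 RPKM plus 0.1 or 1), removal of a length trend, and each library left out in turn.

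The members and lists were chosen with earlier results of these data known, so no test over a list is given. All members are named. Values per library are given for the members of smallest p in each role and for Ccnb1, Cdk1, Cenpf, Mki67 and Top2a, and of the other cell division genes the 3 of smallest p per direction are named.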

Additional observations from a re-analysis of the deposited data

Results flagged for a closer look

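In 2 of 102 sets of 4 libraries 1 library lay far from the other 3, by a gap of most of the set's range. Chance alone gives such a gap in about 5% of sets. Aurka was at 12.3 CPM in antimiR-195 replicate 2, against 5.51 to 6.61 CPM in the other antimiR-195 libraries, a gap of 0.837 of the range. The fibroblast markers summed to 9245 CPM in antimiR-195 replicate 2, against 7295 to 7455 CPM in the other antimiR-195 libraries, a gap of 0.918 of the range. Both fall in the library that was highest for 32 of 41 members. Aurka is 1 of those 32, so its flag there is not a separate observation.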

How the results depend on the processing

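Over 16 alternatives 0 members and 0 genes were called, and the lowest adjusted p of a member was 0.891. Of the 41 members 29 kept their sign in all of them, and 22 of 656 values had the other sign. With limma-voom and quality weights these were Cdk1 at -0.022, Plk1 at -0.016, Incenp at -0.032, Birc5 at -0.13, Cdca8 at -0.040, Cenpa at -0.0078, Kif2c at -0.024, Hmmr at -0.10, Ckap2 at -0.13 and Kif23 at -0.20. With each library left out, the range was -0.0081 to 0.44 for Plk1, -0.12 to 0.15 for Ttk, -0.013 to 0.34 for Incenp, -0.020 to 0.26 for Cenpa, -0.054 to 0.33 for Hmmr, -0.13 to 0.29 for Kif23 and -0.023 to 0.56 for Foxm1. The cause of these was not tested. Genes at an unadjusted p below 0.05 numbered 178, 333 with limma-voom and quality weights, 428 without a filter on low counts, where more genes were tested, and 100 to 344 with each library left out. Members at that threshold numbered 3, 1 with limma-voom, and 1 to 7 with each library left out. With deposited RPKM in place of CPM 0 members were highest in hydrogel replicate 2, against 1 in CPM. No paired analysis was possible because the labels give no replicate numbers. With 4 libraries a group, the median half-width of 0.56 limits what could be detected for a single member.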
